A study of Rattus norvegicus with 9 samples.

Results

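The CLK and SRPK kinases are the protein kinases that phosphorylate the serine and arginine rich (SR) splicing factors, and 6 rat genes were named for them here, Clk1, Clk2, Clk3, Clk4, Srpk1 and Srpk2, each taken as the entry that carries exactly that gene symbol. Of these 6 genes, 5 were found among the 32623 entries of the expression table, and all 5 passed the filter on low counts. Clk2 was not analysed here. RNA was measured in 9 libraries of wild-type primary cortical neurons from Wistar rat embryos of day 16 to 18, grown on glass coated with the transparent conductor indium tin oxide. Cells were left without current (control, 3 libraries), or received direct current stimulation (DCS, 3 libraries) or alternating current stimulation (ACS, 3 libraries). Both currents were given at 3 µA for 20 min over 7 days, and the study's text gives the minutes as per day. The labels write DCS as DES and give 20 Hz for both currents, although a direct current has no frequency, and the study's text ties that frequency to ACS. One label places the cells at 7 days in vitro and the growth protocol at 14. Whether the 3 libraries of a group stand for separate cultures is not given, and p-values here therefore refer to library-to-library spread, which may be technical.

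SR proteins carry long runs of arginine and serine and bind pre-mRNA to steer the choice of splice sites. SRPK kinases act largely in the cytoplasm, where phosphorylation of newly made SR proteins allows their import into the nucleus. CLK kinases act in the nucleus, where further phosphorylation releases SR proteins from nuclear speckles to sites of splicing. CLK1 is also known to control the splicing of its own pre-mRNA, and neurons depend on regulated splicing for many of their channel, receptor and adhesion genes. The comparisons asked whether either current changed the RNA level of these kinases.

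Of the 5 kinases, only Clk1 passed the test, and it was lower under ACS than in both other groups. The change of Clk1 RNA under ACS was -32.6% against control (95% interval -37.8% to -27.0%) and -28.6% against DCS (-34.1% to -22.6%). Clk3, Clk4, Srpk1 and Srpk2 did not pass in any comparison, and no kinase passed between DCS and control, where none had an unadjusted p under 0.05 in edgeR's test and DESeq2 and limma called none either. The share of all 16284 tested genes that passed was 4.16% between ACS and control, 0.0123% between DCS and control and 0.633% between ACS and DCS, against 1 of 5, 0 of 5 and 1 of 5 kinases. Lower under ACS than in control, as Clk1 was, were 1.33% of all tested genes. Genes passed here when edgeR's quasi-likelihood test, with Benjamini-Hochberg adjustment over all tested genes, gave an adjusted p under 0.05. With 5 genes, these counts describe the kinases and say nothing of the family as a whole.

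The libraries held 49039412 to 68690760 counts. The FPKM values (fragments relative to exon length and library depth) allow levels to be compared between genes, and CPM (counts relative to the library total, scaled between libraries by TMM) was used to compare groups. The median log2 fold change of all tested genes was -0.00287 in ACS against control, 0.00275 in DCS against control and -0.00209 in ACS against DCS. Of 10 pan-neuronal marker genes, all were present, and their summed level was 6372 to 6998 CPM in control, 6447 to 6880 in DCS and 6748 to 7026 in ACS. Markers of astrocytes, the oligodendrocyte lineage, microglia and dividing progenitors were detected as well.

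Clk1 (ENSRNOG00000025768), the best studied CLK kinase, lies on the minus strand of chromosome 9 at chr9:65296778-65307995 and was listed with 1 transcript. These positions are those of the expression table, which names no genome build. Clk1 was at 38.2, 37.0 and 35.5 FPKM in the control libraries, at 34.9, 34.1 and 36.1 FPKM in the DCS libraries and at 23.8, 24.3 and 25.7 FPKM in the ACS libraries. All 3 ACS libraries lay below all 6 others, and the control and DCS libraries overlapped. The lowest library without ACS was 34.1 FPKM, against 25.7 FPKM for the highest with it. In estimated counts, Clk1 was at 3769, 4660 and 4162 in control, at 3355, 3600 and 4534 under DCS and at 2240, 2192 and 2510 under ACS. The ACS libraries were among the shallower of the 9, and CPM takes that into account. Clk1 was at 67.7 ± 2.99 CPM in control, 63.9 ± 1.48 CPM under DCS and 45.6 ± 1.74 CPM under ACS (mean ± SD, n = 3 each).

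The log2 fold change of Clk1 in ACS against control was -0.57 (SE 0.052, 95% interval -0.69 to -0.45), with an adjusted p of 0.000717 in edgeR's quasi-likelihood test. By unadjusted p (7.93e-07), Clk1 was number 18 of 16284 genes. Against DCS, the log2 fold change under ACS was -0.49 (SE 0.052, interval -0.60 to -0.37), with an adjusted p of 0.00456 in the same edgeR test, and Clk1 was number 12 of all genes by p. Between DCS and control, the log2 fold change was -0.08 (interval -0.20 to 0.03, edgeR adjusted p 0.722). ACS was set against control and against DCS with the same 3 ACS libraries, so these 2 differences are not independent of each other. Leaving out any 1 of the 9 libraries kept both differences below 0 and past the threshold. At the thresholds the study applied, an unadjusted p under 0.05 together with a log2 fold change over 1 in either direction, 1.47% of all tested genes were selected between ACS and control, and Clk1 was not among them, because its change was smaller than that.

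**Figure D1:**
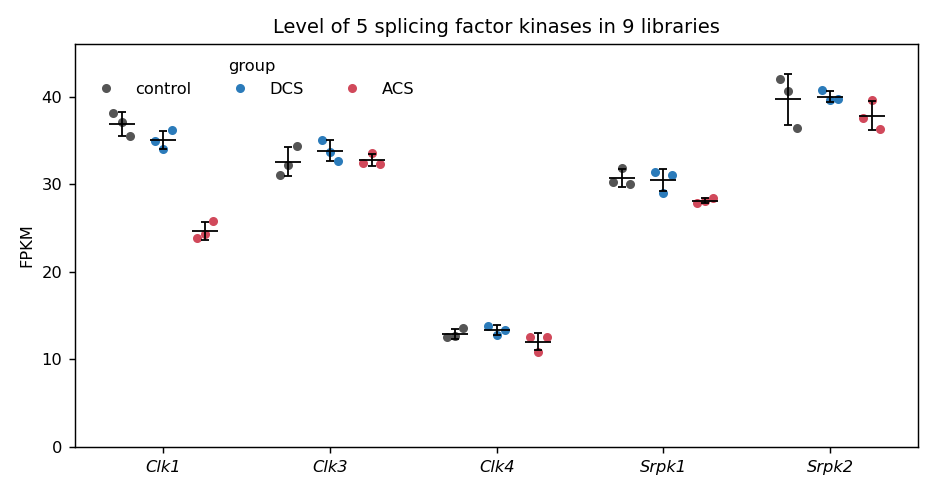
FPKM (vertical axis) of the 5 kinases in each library, with 1 point per library, coloured by group, and a black bar and whiskers for the mean and SD of 3 libraries. The Clk1 points under ACS, 23.8 to 25.7 FPKM, sit below those of control and DCS, 34.1 to 38.2 FPKM, while the groups of the other kinases lie close together.

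Clk3 (ENSRNOG00000030126), a CLK kinase with the same type of kinase domain, lies on the minus strand at chr8:62528225-62542622 and was listed with 2 transcripts. Its level was 31.1, 32.2 and 34.3 FPKM in control, 35.0, 33.7 and 32.7 FPKM under DCS and 32.4, 33.5 and 32.3 FPKM under ACS. The 3 groups overlapped throughout. Its log2 fold change was 0.02 in ACS against control (interval -0.09 to 0.14, edgeR adjusted p 0.837) and 0.05 in DCS against control (interval -0.07 to 0.16, edgeR adjusted p 0.845). A change of the size seen for Clk1 lies outside both intervals.

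Clk4 (ENSRNOG00000003714), a close relative of Clk1 in sequence, lies on the plus strand at chr10:36715565-36733133 with 1 transcript. It was the lowest of the 5 kinases in all 9 libraries, at 12.5, 12.7 and 13.6 FPKM in control, 13.8, 12.7 and 13.4 FPKM under DCS and 12.6, 10.9 and 12.5 FPKM under ACS. Replicate 2 of ACS was the lowest library and the other 2 reached the control range. The log2 fold change was -0.09 in ACS against control (interval -0.28 to 0.09, edgeR adjusted p 0.567), 0.03 in DCS against control (interval -0.15 to 0.22, edgeR adjusted p 0.936) and -0.13 in ACS against DCS (interval -0.31 to 0.06, edgeR adjusted p 0.551). The Clk4 entry overlaps 2 other tested entries. The libraries keep strand, but the strand setting of the counting is not given in the sources used here. How far reads of these entries entered the Clk4 level was not tested. Whether reads were shared between Clk1 and Clk4 as close relatives was not tested.

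Srpk1 (ENSRNOG00000000511), whose product is held in the cytoplasm by heat shock chaperones, lies on the minus strand at chr20:5831119-5865854 with 3 transcripts. It was at 30.2, 31.8 and 30.0 FPKM in control, 31.4, 29.0 and 31.0 FPKM under DCS and 27.9, 28.1 and 28.4 FPKM under ACS. In CPM its ACS libraries (74.1 to 74.9) lay below those of control (78.1 to 83.8) and of DCS (75.8 to 82.5) with no overlap. Groups that do not overlap in either direction were found for 27.1% of all tested genes between ACS and control and for 21.4% between ACS and DCS. The log2 fold change of Srpk1 in ACS against control was -0.11 (SE 0.047, interval -0.22 to -0.01). Its unadjusted p was 0.0395, a level that 20.8% of all tested genes reached, and its adjusted p was 0.212 by edgeR's quasi-likelihood test, so it did not pass. Against DCS the log2 fold change was -0.09 (interval -0.20 to 0.01, edgeR adjusted p 0.431), and between DCS and control it was -0.02 (interval -0.13 to 0.09, edgeR adjusted p 0.933).

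Srpk2 (ENSRNOG00000010601), the SRPK kinase known for its high level in brain, lies on the plus strand at chr4:8066737-8185935 with 3 transcripts. It was at 42.0, 40.6 and 36.4 FPKM in control, 40.7, 39.6 and 39.7 FPKM under DCS and 37.6, 39.6 and 36.3 FPKM under ACS. The control libraries spanned the values of both stimulated groups almost entirely. The log2 fold change was -0.05 in ACS against control (interval -0.19 to 0.08, edgeR adjusted p 0.661) and 0.00 in DCS against control (interval -0.13 to 0.14, edgeR adjusted p 0.999).

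**Figure D2:**
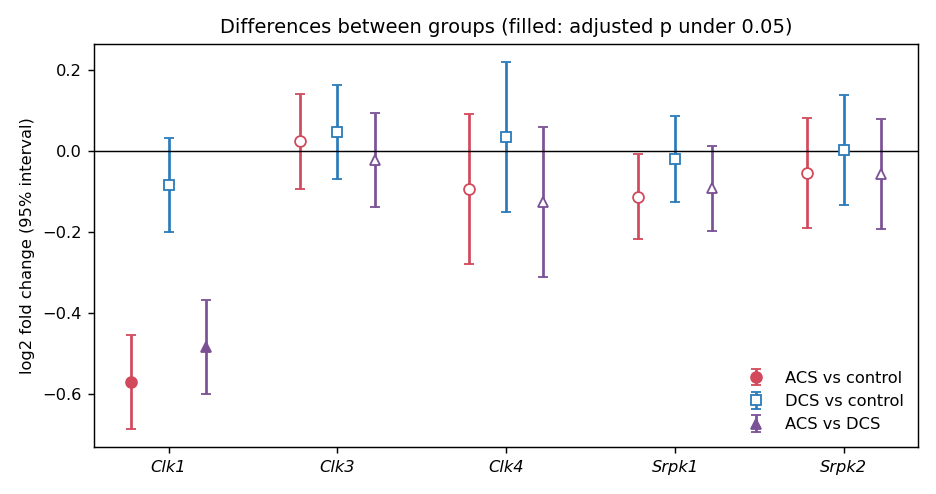
Log2 fold change (vertical axis) of each kinase in the 3 comparisons, with 95% intervals from edgeR's quasi-likelihood fit over 9 libraries and filled symbols where the adjusted p was under 0.05. Both filled symbols belong to Clk1, at -0.57 for ACS against control and -0.49 for ACS against DCS.

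The order of the kinases by FPKM differed between groups in the place of Clk1. In control, Srpk2 (39.7 ± 2.95 FPKM, n = 3) was followed by Clk1 (35.5 to 38.2), Clk3 (32.5 ± 1.66), Srpk1 (30.7 ± 0.989) and Clk4 (12.9 ± 0.562). The libraries of Srpk2 and Clk1 overlapped there, as did those of Clk3 and Srpk1. Under DCS the order was the same, with Clk1 (35.0 ± 1.04 FPKM) and Clk3 (33.8 ± 1.19) overlapping. Under ACS, Clk1 (24.6 ± 1.02 FPKM) came after Srpk2 (37.8 ± 1.69), Clk3 (32.7 ± 0.669) and Srpk1 (28.1 ± 0.241), ahead of Clk4 (10.9 to 12.6). No neighbours in that order overlapped under ACS. FPKM takes account of the length of the transcript model but not of how evenly it is covered.

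Ratios within a library do not depend on how libraries were scaled to each other. The ratio of Clk1 to Clk3, both in FPKM, was 1.03 to 1.23 in control, 0.997 to 1.11 under DCS and 0.725 to 0.798 under ACS. Clk1 thus exceeded Clk3 in every control library and lay below it in every ACS library. The ratio of Clk1 to Clk4 was 2.86 ± 0.223 in control, 2.63 ± 0.0958 under DCS and 2.06 ± 0.173 under ACS. The ratio of Clk3 to Clk4, where neither gene passed the test, was 2.52 ± 0.0296, 2.54 ± 0.101 and 2.75 ± 0.293 in the same order.

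Clk1 made up 44.8 ± 2.10% of the summed FPKM of Clk1, Clk3 and Clk4 in control, 42.7 ± 1.18% under DCS and 35.5 ± 0.976% under ACS (mean ± SD, n = 3 each). The share of Clk3 was 39.5 ± 1.60% in control and 47.2 ± 1.53% under ACS, and that of Clk4 was 15.3% to 16.3% and 15.8% to 18.3%. The Clk1 share differed by -9.34 percentage points between ACS and control, with p = 0.1 by a two-sided exact permutation test, which is the smallest p that 3 libraries against 3 can give. It differed by -7.17 points between ACS and DCS (exact permutation p = 0.1) and by -2.16 points between DCS and control (exact permutation p = 0.2). Over the 6 share comparisons made, the Benjamini-Hochberg adjusted p of these exact tests was 0.3, 0.3 and 0.4. Srpk1 made up 43.7 ± 1.73% of the summed FPKM of Srpk1 and Srpk2 in control, 43.2 ± 0.802% under DCS and 42.7 ± 1.20% under ACS. The differences of the Srpk1 share had exact permutation p-values of 0.4 for ACS against control, 0.8 for DCS against control and 0.7 for ACS against DCS.

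The summed level of the 3 CLK kinases was 81.7 to 83.4 FPKM in control, 80.5 to 83.8 FPKM under DCS and 68.6 to 70.5 FPKM under ACS. The summed level of both SRPK kinases was 70.4 ± 3.43 FPKM in control, 70.5 ± 1.76 FPKM under DCS and 66.0 ± 1.60 FPKM under ACS. The sums are given as a description without a test, and the lower CLK sum under ACS follows from Clk1. Clk2 is in neither sum.

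**Figure D3:**
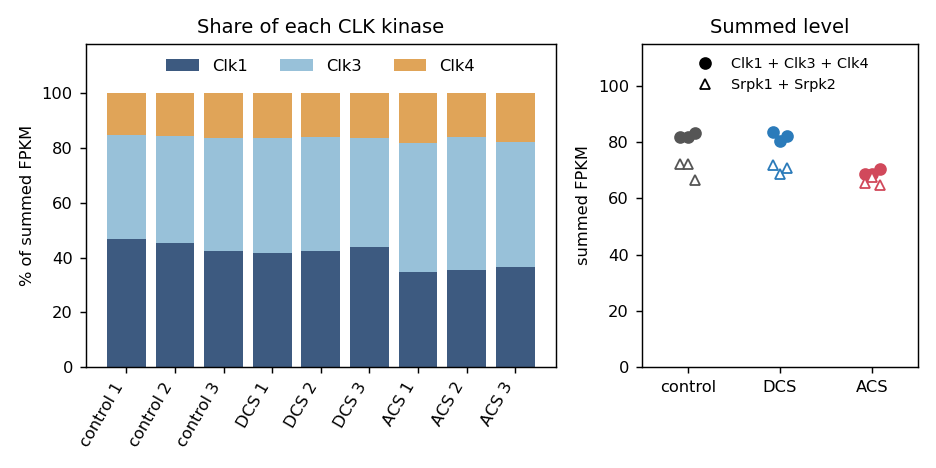
Left, percent of the summed FPKM of Clk1, Clk3 and Clk4 held by each gene, with 1 bar per library. Right, summed FPKM of the CLK kinases (filled circles) and of the SRPK kinases (open triangles), with 1 symbol per library. The Clk1 share is 42.6% to 46.7% in the control bars and 34.6% to 36.5% in the ACS bars.

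The promoter of Clk1, the kinase that moved, is shown with a promoter of Clk4, its close relative that did not pass the test. Electrical activity raises calcium and cAMP in neurons and acts on many genes through the factor CREB, whose site is TGACGTCA, with TGACG as its core and CGTCA as the same core on the other strand. Both motifs were looked for on both strands in the 250 bases before the start of each gene in RefSeq (build GRCr8). RefSeq held windows for all 5 kinases, 6 windows in all because Clk4 has 2 starts. The core, in capitals, was found in 2 of the 6 windows, against 18.2% of 33469 rat promoter windows. The full site, which contains the core on each strand, was found in 1 window, against 1.59% of all windows. The Clk1 window lies at chr9:67453181-67453430 on the minus strand of GRCr8, and its core match starts 5 bases before the gene's start.
Clk1: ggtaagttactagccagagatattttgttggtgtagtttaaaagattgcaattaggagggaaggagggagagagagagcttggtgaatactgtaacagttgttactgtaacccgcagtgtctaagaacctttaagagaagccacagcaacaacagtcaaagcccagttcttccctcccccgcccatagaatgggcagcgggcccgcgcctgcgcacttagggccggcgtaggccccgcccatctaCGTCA
The second Clk4 window lies at chr10:36025490-36025739 on the plus strand, holds the full site 136 bases before the start and has 4 core matches in all, counting both within the full site.
Clk4: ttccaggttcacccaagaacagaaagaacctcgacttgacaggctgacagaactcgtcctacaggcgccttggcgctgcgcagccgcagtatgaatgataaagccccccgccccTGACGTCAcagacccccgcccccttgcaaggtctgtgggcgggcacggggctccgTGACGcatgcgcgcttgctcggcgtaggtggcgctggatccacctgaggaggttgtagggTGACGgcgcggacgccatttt
No core was found in the windows of Clk3, Srpk1 and Srpk2 or in the first window of Clk4. The 2 printed windows are thus the ones that hold a match. A match of letters does not show that a factor was bound, and binding was not measured here. The GC content of the printed windows was 52% for Clk1 and 63.2% for Clk4.

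Neighbours of Clk1 on chromosome 9 were read from the table's own positions. Of the tested entries within 50000 bases, Bzw1, a translation regulator, lay 5127 bases away with a log2 fold change of 0.03 in ACS against control. Ppil3, a cyclophilin found in spliceosomes, lay 7415 bases away with -0.01. Nif3l1 (23295 bases, 0.05), Orc2 (42632 bases, 0.12) and an entry for U2 small nuclear RNA (27301 bases, 0.35) were the remaining ones. None of these 5 passed edgeR's test, with adjusted p-values of 0.354 to 0.979.

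Clk1 was also set beside all genes annotated with protein kinase activity in the gene ontology columns of the table, a group chosen after values were seen. Of 480 such genes tested, 20 passed between ACS and control (4.17%), of which 3 were lower (0.625%) and 17 higher (3.54%). Clk1 had the smallest unadjusted p of the 3 lower genes. It ranked number 2 of the 480 annotated genes, after Dmpk, a kinase of muscle and brain, which rose by 1.07 on the log2 scale. Slk, a Ste20-like kinase, was at a log2 fold change of -0.28 (edgeR adjusted p 0.0250) and Pdik1l, a little studied kinase, at -0.27 (edgeR adjusted p 0.0351). Both lost their call when any 1 of the control replicates 1 and 2 or the ACS replicates 1, 2 and 3 was left out, and Pdik1l also lost it without DCS replicate 1 or 2. Without a library their adjusted p reached 0.110 for Slk and 0.136 for Pdik1l in edgeR's test. No gene of the 480 passed between DCS and control, and 6 passed between ACS and DCS (1.25%), of which 1, Clk1, was lower (0.208%).

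**Figure D4:**
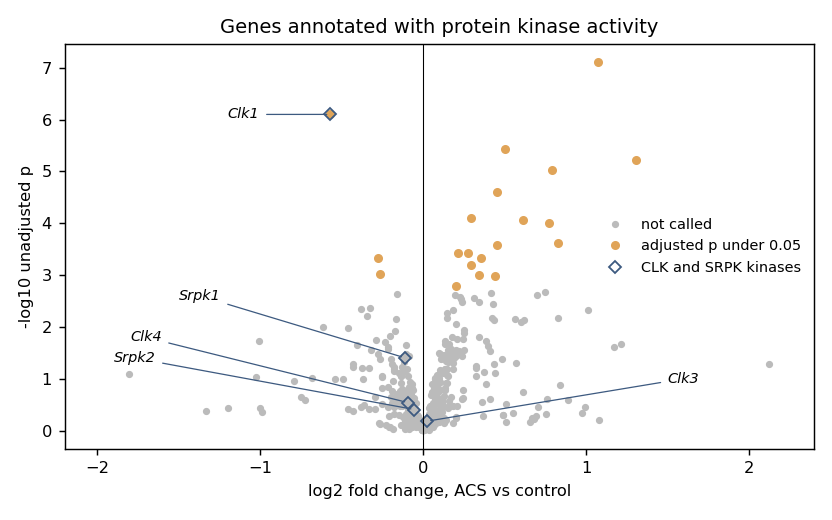
Log2 fold change in ACS against control (horizontal axis) and -log10 of the unadjusted edgeR p (vertical axis) of 480 genes annotated with protein kinase activity, with 1 point per gene. Orange points passed the adjusted threshold and diamonds mark the 5 CLK and SRPK kinases. Clk1, at -0.57, has the smallest p on the lower side and is number 13 of 480 counted from the lowest log2 fold change. At 9.26, 1 gene lies beyond the axis.

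The substrates of these kinases were taken from lists of their known partners. Of 13 SR proteins, all tested, 1 rose, 1 fell and 11 did not pass between ACS and control. Of all tested genes, 2.83% rose and 1.33% fell in that comparison. In edgeR's test 5 of the 13 had an unadjusted p under 0.05, beside 20.8% of all tested genes. The median log2 fold change of the 13 was -0.03, beside -0.00287 over all tested genes, and 3 of the 13 were above 0. Srsf5, an SR protein known for its response to growth signals, rose from 154.2 ± 8.22 to 206.3 ± 10.7 CPM (n = 3 each), a log2 fold change of 0.42 with an edgeR adjusted p of 0.00483. Srsf10, a splicing regulator whose activity depends on its phosphorylation, fell from 37.1 ± 1.42 to 30.2 ± 0.431 CPM, a log2 fold change of -0.30 with an edgeR adjusted p of 0.0210. The Srsf10 call was lost when control replicate 1 or 2 or any ACS replicate was left out, with edgeR adjusted p-values of 0.0533 to 0.109. Srsf1, the founding SR protein, was at -0.17 (edgeR adjusted p 0.127) and Srsf11 at 0.15 (edgeR adjusted p 0.170). Srsf1 passed in edgeR's test without control replicate 3 (adjusted p 0.00579).

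Of 12 other proteins with arginine and serine repeats, 2 rose, none fell and 10 did not pass between ACS and control. Their median log2 fold change was 0.02. Of all tested genes, 2.83% rose and 1.33% fell. In edgeR's test 5 of the 12 had an unadjusted p under 0.05, beside 20.8% of all tested genes. DESeq2 called 3 of the 12 higher and 1 lower, and it called 1652 of all 16284 tested genes. Snrnp70, the U1 small nuclear ribonucleoprotein component that meets SR proteins at the 5′ splice site, rose from 277.5 ± 11.7 to 400.0 ± 13.5 CPM, a log2 fold change of 0.53 with an edgeR adjusted p of 0.000828. Srrm2, a scaffold of nuclear speckles, rose from 1177 ± 12.3 to 1440 ± 18.7 CPM, a log2 fold change of 0.29 with an edgeR adjusted p of 0.00243. Pnn, a speckle protein, was at 0.20 (edgeR adjusted p 0.0600) and Ddx23, a spliceosomal helicase phosphorylated by SRPK2, at -0.14 (edgeR adjusted p 0.0927). Pnn passed in edgeR's test without control replicate 1 (adjusted p 0.0450). The study selected genes from these same libraries, and the lists here were chosen with earlier results known. The calls of Clk1, Srsf5, Snrnp70 and Srrm2 are therefore not independent evidence of their direction.

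Against DCS, Srsf5 was higher under ACS by 0.36 on the log2 scale (edgeR adjusted p 0.0307), Snrnp70 by 0.37 (edgeR adjusted p 0.0120) and Srrm2 by 0.32 (edgeR adjusted p 0.00453). The Srsf5 difference from DCS lost its call without control replicate 2, DCS replicate 2 or 3 or ACS replicate 1 or 2, with edgeR adjusted p-values of 0.0548 to 0.133. The Snrnp70 difference from DCS lost it without DCS replicate 2 or ACS replicate 1 or 2, with edgeR adjusted p-values of 0.0563 to 0.0714. Between DCS and control, 0 of the 13 SR proteins and 0 of the 12 other proteins passed edgeR's test. DESeq2 and limma called none either. In edgeR's test 1 of each list had an unadjusted p under 0.05, as 7.09% of all tested genes did. These were Srsf1, at -0.14 (unadjusted edgeR p 0.0392), and Snrnp70, at 0.16 (interval 0.05 to 0.27, unadjusted edgeR p 0.00836, adjusted p 0.692). Snrnp70 was at 310.6 ± 15.1 CPM under DCS, between its means in control and under ACS.

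**Figure D5:**
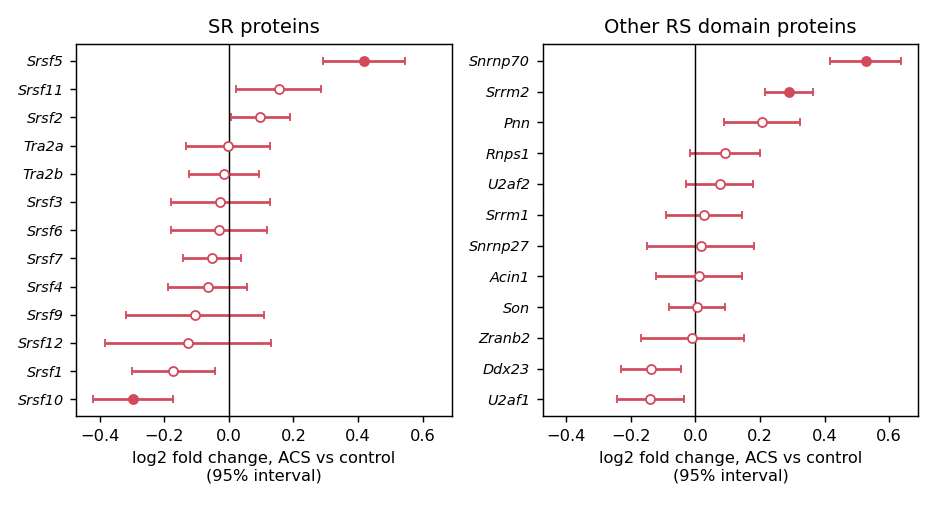
Log2 fold change in ACS against control (horizontal axis) with 95% intervals for 13 SR proteins (left) and 12 other proteins with arginine and serine repeats (right), and filled points where edgeR's adjusted p was under 0.05. Srsf5, Snrnp70 and Srrm2 are filled above 0 and Srsf10 is filled below 0.

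Of 14 related kinases, the DYRK and HIPK kinases, Srpk3, Prpf4b and the cyclin-dependent kinases Cdk11b, Cdk12 and Cdk13, none passed in any comparison by edgeR, DESeq2 or limma, and 4 of 14 had an unadjusted p under 0.05 between ACS and control in edgeR's test, which 20.8% of all tested genes reached. Their median log2 fold change in that comparison was -0.04. Those with the smallest p were Cdk12, a kinase of RNA polymerase II, at -0.17 (edgeR adjusted p 0.118) and Dyrk1a, a dosage-sensitive kinase of brain development, at 0.13 (edgeR adjusted p 0.156). Hipk2, at -0.22, and Hipk1, at -0.11, had edgeR adjusted p-values of 0.173 and 0.193. Srpk3 had the largest log2 fold change of the list, 2.12 (interval -0.03 to 4.27, edgeR adjusted p 0.245). That interval is too wide to tell a change of Srpk3 from none. Of 14 phosphatases, nuclear import factors and SRPK regulators, none passed edgeR's test in any comparison, and 2 of 14 had an unadjusted p under 0.05 between ACS and control, beside the same 20.8% of all tested genes. DESeq2 called these 2, both lower, and limma called none, beside 1652 and 554 of all 16284 tested genes. The median log2 fold change of the 14 was -0.05, with 1 of 14 above 0. Hsp90aa1 (-0.19, edgeR adjusted p 0.163) and Hspa8 (-0.18, edgeR adjusted p 0.165), chaperones that bind SRPK1, had the smallest p, and both passed without control replicate 3 (edgeR adjusted p 0.00435 and 0.0410). Tnpo3, which imports phosphorylated SR proteins, was at -0.09, and Ahsa1, a cochaperone of Hsp90, at -0.08.

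Markers of cell types moved as follows beside the lower Clk1 under ACS. Of 13 markers of progenitors and dividing cells, 3 were lower under ACS than in control in edgeR's test (Hes5, Mki67 and Vim). DESeq2 called 5 of the 13 lower and limma 1. Of all 16284 tested genes, DESeq2 called 1652 and limma 554 in either direction. The summed level of the 13 was 1656 to 1763 CPM in control, 1577 to 1635 under DCS and 1453 to 1603 under ACS. Mki67 and Vim lost their edgeR call when any 1 library other than control replicate 3 or DCS replicate 3 was left out. Their adjusted p-values were then 0.0506 to 0.173, and Hes5 was below 4 CPM in all groups. Against DCS, only Hes5 passed edgeR's test, with an adjusted p of up to 0.0948 when a library was left out. Between DCS and control none passed, while 4 of 13 had an unadjusted edgeR p under 0.05, as 7.09% of all tested genes did. Mki67 averaged 213.5, 193.4 and 183.0 CPM in control, DCS and ACS, and Vim 315.2, 325.0 and 276.5. Of 10 pan-neuronal markers, 1 was higher under ACS than in control (Rbfox3) and none was lower past the threshold. The log2 fold change was above 0 for 6 of them, with Map2 at -0.34 (edgeR adjusted p 0.270). Of 10 astrocyte markers, 1 was higher (Gfap), none was lower past the threshold and 5 were above 0, with Sox9 at -0.33 (edgeR adjusted p 0.118) and Slc1a3 at -0.30 (edgeR adjusted p 0.514). Of 10 microglia markers, 1 was higher (C1qa), none was lower past the threshold and 6 were above 0, with Ptprc at -0.57 (edgeR adjusted p 0.135) and Tmem119 at -0.26 (edgeR adjusted p 0.595). Of all tested genes, 2.83% were higher and 1.33% lower under ACS. Gfap lost its call without control replicate 1 or 2 or ACS replicate 1 or 3 (edgeR adjusted p 0.0744 to 0.115), and C1qa lost it without control replicate 2 or any ACS replicate (edgeR adjusted p 0.0597 to 0.0916). The summed astrocyte markers were 1295 to 1352 CPM in control, 1278 to 1287 under DCS and 1091 to 1463 under ACS, and the summed microglia markers were 234 to 242, 231 to 246 and 226 to 240 CPM. The oligodendrocyte lineage, with none of 10 markers past the threshold, was at 632 to 714, 635 to 687 and 634 to 683 CPM. Endothelial markers were at 4.59 to 6.13 CPM in control, 2.74 to 6.36 under DCS and 5.06 to 7.51 under ACS in sum, with Emcn at 0 in all libraries and Cldn5 at 0 under ACS, and none of 7 tested passed. Meningeal fibroblast markers were at 20.0 to 27.7, 21.6 to 29.5 and 21.7 to 27.4 CPM in sum, and none of 8 tested passed. The part of these shifts in the Clk1 difference was not tested. In bulk RNA, fewer cells of a type and less RNA per cell cannot be told apart.

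Genes whose level followed each kinase most closely were found by Pearson's correlation of log2 CPM over the 9 libraries, among 11633 genes with a mean of at least 1 FPKM and a gene name. All genes were measured in the same libraries, which differ in group and in depth, and the correlations are a description. For Clk1 the closest were Phospho2, a small phosphatase (r = 0.992), Zfp949, a zinc finger protein (r = 0.983), and Pdia4, a disulfide isomerase of the endoplasmic reticulum (r = 0.979). Within groups, after the group means were removed, these correlations were 0.734, 0.9497 and 0.665. Their log2 fold changes in ACS against control were -0.45 for Phospho2, -0.59 for Zfp949 and -0.34 for Pdia4. The choice by likeness over all 9 libraries includes the group difference and largely fixes that direction, so these values are given with no test. The closest genes were Fam89a, Clstn3 and Phpt1 for Clk3 (r = 0.932 to 0.9498) and Slc8a3, Rbbp9 and Upf3a for Clk4 (r = 0.929 to 0.933). For Srpk1 they were Flot2, Eif2ak3 and Ppp1r18 (r = 0.934 to 0.948) and for Srpk2 Cers6, Fam136a and Ccdc112 (r = 0.928 to 0.947).

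All values are sums over the transcripts listed for a gene, which was 1 transcript for Clk1 and 1 for Clk4. The values do not separate productive transcripts from those with a retained intron or a skipped exon, a known form of CLK1 RNA. They do not measure kinase protein or activity either.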

How the data were processed

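RNA was measured in 9 libraries of rat cortical neurons (control, DCS and ACS, 3 each), grouped by their labels. The authors purified polyadenylated RNA, built libraries that keep strand, trimmed reads (fastp in the methods, cutadapt 1.9 in the labels), aligned them with HISAT2 2.0.4 and quantified transcripts with StringTie 1.3.4d. The methods call the genome Rattus norvegicus GRCh38. The labels name UMI-tools, DESeq2 and edgeR without a role for the first. The deposited FPKM values are the authors' fragment numbers relative to exon length and library depth, with zeros written as 0.0001. The deposited count of each gene is an estimated count given as a whole number. Low counts pile up at multiples of 4 (34.1% of those between 1 and 15, against 20% for an even spread), so 1 fragment may add about 4 counts, and a library would then hold 12259853 to 17172690 fragments and 548 to 1165 for Clk1.

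Counts were scaled by TMM and filtered by filterByExpr (minimum count 10, minimum total 15), which left 16284 of 32623 entries, and were tested with edgeR 4.0.16 (quasi-likelihood F test, all 9 libraries in 1 fit, R 4.3.3). The fit had a common coefficient of variation of 0.218 and 9.83 degrees of freedom. Benjamini-Hochberg adjustment ran over all tested genes. Shares of summed FPKM were compared by exact permutation, and since Clk2 was not analysed, the share planned over Clk1 to Clk4 was taken over Clk1, Clk3 and Clk4. Alternatives were DESeq2 1.42.0, limma 3.58.1 on log2(FPKM + 0.1) and log2(FPKM + 1), other scaling and filters, counts divided by 4, a replicate block and leaving out each library. The named genes are the kinases, up to 4 genes per list with the smallest p between ACS and control, and the 3 closest genes per kinase. The marker genes named are those past the threshold or at 0. Map2, Sox9, Slc1a3, Ptprc, Tmem119, Slk, Pdik1l, Dmpk, Srpk3 and the neighbours of Clk1 were chosen after their values were seen. The kinases, lists and tests were chosen with earlier results of these data known.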

Additional observations from a re-analysis of the deposited data

How the results depend on the processing

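Of the 15 log2 fold changes of the kinases, those of Clk1 in ACS against control and against DCS kept their direction and call under all 9 other settings of the fit and all 9 fits without a library, and lost it only at the thresholds of the study. Clk1 ranged from -0.60 to -0.54 without a library (edgeR adjusted p 0.00103 to 0.00710) and from -0.58 to -0.57 otherwise (adjusted p 7.82e-17 to 0.00434) in ACS against control. Against DCS it ranged from -0.52 to -0.47 (edgeR adjusted p 0.00429 to 0.0317) and from -0.51 to -0.48 (adjusted p 1.11e-11 to 0.0166). The study's thresholds gave 0 kinases in both comparisons in place of 1, since Clk1 changed by less than 1 on the log2 scale. Differences near 0 changed sign. Srpk2 in DCS against control was -0.000264 with median-of-ratios scaling, -0.000821 with no filter, -0.000202 with a mean FPKM of at least 1, -0.00144 with 6 libraries and -0.000206 with DESeq2. Without a library the ranges were -0.00574 to 0.0570 for Clk3 in ACS against control, -0.0555 to 0.00932 for Clk3 in ACS against DCS, and in DCS against control -0.000766 to 0.0631 for Clk4, -0.0477 to 0.0117 for Srpk1, -0.0632 to 0.0495 for Srpk2 and -1.35 to 0.356 percentage points for the Srpk1 share. The cause was not tested.

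The number of all genes past the threshold between ACS and control, 678, moved with the setting. It was 1652 with DESeq2, 138 without control replicate 2, 163 without control replicate 1, 191, 175 and 303 without ACS replicates 1, 2 and 3, 413 without DCS replicate 2 and 1431 without control replicate 3. Between ACS and DCS it was 650 with DESeq2 and 27 to 184 without a library, against 103. Between DCS and control it was 38 with DESeq2 and 47 without control replicate 3, against 2. Pnn, Srsf1, Ddx23, Hsp90aa1 and Hspa8 passed between ACS and control with DESeq2 (adjusted p 0.00649 to 0.0486).

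The deviations of same-numbered libraries from their group means correlated at r -0.0532 to 0.0631 over 9 pairs. With 3 libraries per group this cannot settle whether a number pairs libraries, which the labels do not give. With the replicate number as a block, Clk1 was at -0.57 in ACS against control and -0.49 in ACS against DCS, 1, 0 and 1 kinases passed in the 3 comparisons, and the Clk1 share differed by -9.34 points. The block gave 475 genes between ACS and control and 59 between ACS and DCS. Precision is limited by 3 libraries per group. Intervals of the kinases that did not pass still include differences of up to 0.31 on the log2 scale.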
